A study of Mus musculus with 6 samples.

Results

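The genes described here encode the machinery that copies DNA in S phase: the origin recognition and licensing factors, the MCM helicase, the replicative polymerases with their clamp and clamp loader, and the enzymes that supply and join nucleotides. They were a list of 45 gene symbols, each read from the brightest probe set that named that gene alone, and all 45 were found among the 19937 genes that the array's annotation pairs with a probe set of their own. RNA of CD4+ T cells, which include helper and regulatory T lymphocytes, came from C57BL/6 mice of 6 weeks and was hybridised to Affymetrix arrays. Cells of mice deficient in cystathionine beta-synthase (CBS-KO, n = 3 arrays) were set against cells of wild-type mice (WT, n = 3 arrays), and the arrays of a group are biological replicates by their labels. CBS joins homocysteine to serine on the way to cysteine. The labels state neither how Cbs was disrupted, nor whether this was in T cells alone, nor how the CD4+ cells were isolated.

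Replication starts when the origin recognition complex, Cdc6 and Cdt1 load the ring-shaped MCM helicase onto DNA in G1. Cdc45 and GINS then activate the ring, primase and polymerase alpha start each strand, and polymerases delta and epsilon extend it on the PCNA clamp. Most of these genes are transcribed under E2F factors as cells leave the resting state, so that resting lymphocytes hold little of their mRNA and dividing cells hold much.

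Values are log2(intensity + 16), and a fold change is the CBS-KO mean minus the WT mean on that scale. The array medians lay between 7.37 and 7.55, and the median log2 fold change over all 20856 tested probe sets was -0.048. The probe set of Cbs, the targeted gene, read 7.25, 7.63 and 7.35 in CBS-KO 1 to 3, against 7.37, 7.48 and 7.19 in WT 1 to 3, with overlap. Where that probe set lies relative to the disrupted part of Cbs is unknown here, and the genotype labels could not be checked with it. Xist, the transcript of the inactive X chromosome, was at 6.02 and 6.18 in CBS-KO 1 and 2 and at 12.23 in CBS-KO 3, against 12.61 to 12.68 in the WT arrays. The Y-linked Eif2s3y had the opposite pattern, so 2 of 3 CBS-KO arrays and 0 of 3 WT arrays carried male signal, and sex is partly confounded with genotype. Both Xist and Eif2s3y place CBS-KO 3 with the WT arrays. CD4 T cell genes were present on every array, with a summed intensity of 33370 to 52947 over 11 genes in CBS-KO arrays and 63014 to 71510 in WT arrays.

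DNA replication genes had higher mean levels on CBS-KO arrays than on WT arrays in 44 of 45 cases. Of the 45, 9 rose past an adjusted p of 0.05 and 0 fell (limma, Benjamini-Hochberg over all tested probe sets), where 5.09% of all tested probe sets rose and 4.47% fell. The 9 were Orc1, Cdc6, Mcm2, Mcm5, Mcm10, Pold2, Pole, Rrm2 and Tk1. At an unadjusted p under 0.05 in limma, 37 were higher and 0 lower, and 13.6% of all tested probe sets were higher. The median log2 fold change over the 45 was 1.14, and 29 of 45 were at least 2-fold higher, which 5.06% of all tested probe sets were. In 36 of the 45, every CBS-KO array lay above every WT array, as in 15% of all tested probe sets. All 45 passed the filter on dim probe sets (the 40th percentile of mean level, 6.99), but Orc1 lay under that level on all 3 WT arrays and passed through its CBS-KO values.

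The number of calls changed with single arrays and with the filter. Without CBS-KO 2, 44 of the 45 rose (16.3% of all tested probe sets), and without CBS-KO 3, 4 rose (3.83%). Without CBS-KO 1, WT 1, WT 2 or WT 3, 0 of the 45 passed in limma, where 0.561%, 0.331%, 0.259% and 2.05% of all tested probe sets rose. At an unadjusted p under 0.05, 23, 31, 24 and 30 of the 45 were higher in those fits, where 9.2%, 10%, 9.49% and 11.7% of all tested probe sets were. The median log2 fold change over the 45 genes lay between 0.84 and 1.57 whichever array was left out. With no filter on dim probe sets, Tk1 alone of the 45 was called, beside 1.73% of all probe sets.

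**Figure D1:**
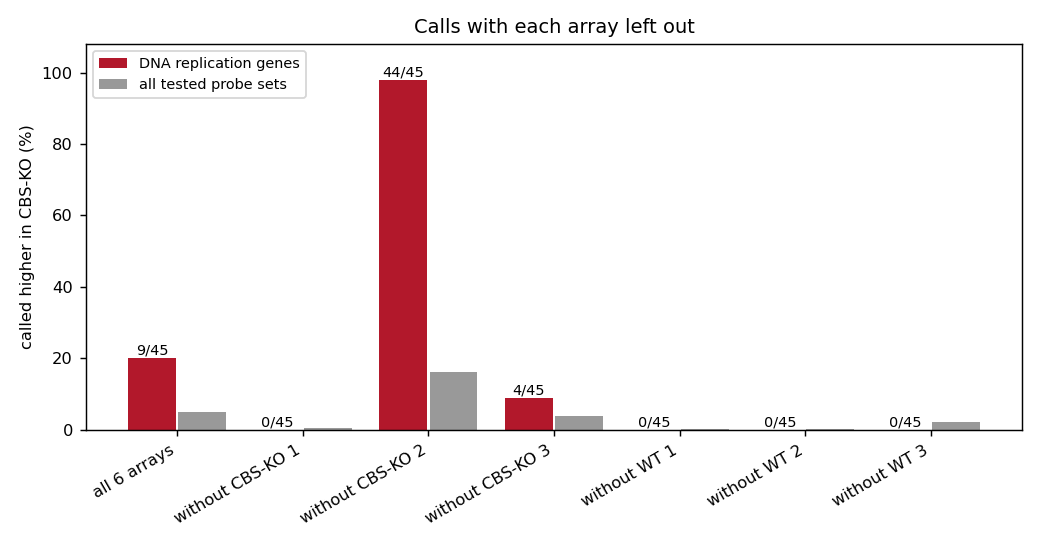
Percentage of genes called higher in CBS-KO (limma adjusted p under 0.05) for the DNA replication genes (red) and all tested probe sets (grey), with all 6 arrays and with each array left out; labels give the genes called of those tested. With all 6 arrays 9 of 45 were called, without CBS-KO 2 there were 44, and without CBS-KO 1 or any WT array there were 0.

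The sex of the arrays, read from Eif2s3y, was then taken into account. With sex as a term in limma 40 of the 45 rose and 0 fell, where 11.1% of all tested probe sets rose. Among the 4 female arrays alone 44 rose and 0 fell, where 16.4% of all tested probe sets rose. The median log2 fold change over the 45 was 1.78 in both, because both set CBS-KO 3 alone against the WT arrays and are 1 estimate with different errors. These values rest on CBS-KO 3, the single female CBS-KO array, which was also the array with the highest level of every one of the 45 genes, and the spread of that lone array is taken from the other arrays.

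The 3 CBS-KO arrays did not rise alike. The mean of the 45 genes stood 1.35, 0.36 and 1.77 log2 units above the WT mean in CBS-KO 1, 2 and 3, against 0.03, -0.15 and 0.12 in WT 1, 2 and 3. In all 45 genes CBS-KO 3 was highest, CBS-KO 1 next and CBS-KO 2 lowest of the group, an order that 33.6% of all tested probe sets had. CBS-KO 1 and CBS-KO 3 lay above all WT arrays in 45 of 45 genes, beside 31.0% and 35.4% of all tested probe sets. CBS-KO 2 lay above all WT arrays in 36, within the WT range in 5 (Mcm6, Pold1, Rfc3, Dut and Timeless) and below all WT arrays in 4 (Gins3, Gins4, Rpa1 and Rpa3), beside 31.1%, 29.4% and 39.5% of all tested probe sets. Among the WT arrays WT 2 was lowest in 38 of 45 genes, against 35.4% of all tested probe sets. The SD was larger among CBS-KO arrays than among WT arrays in all 45 genes (73.1% of all tested probe sets), with a median SD of 0.75 in CBS-KO and 0.15 in WT.

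**Figure D2:**
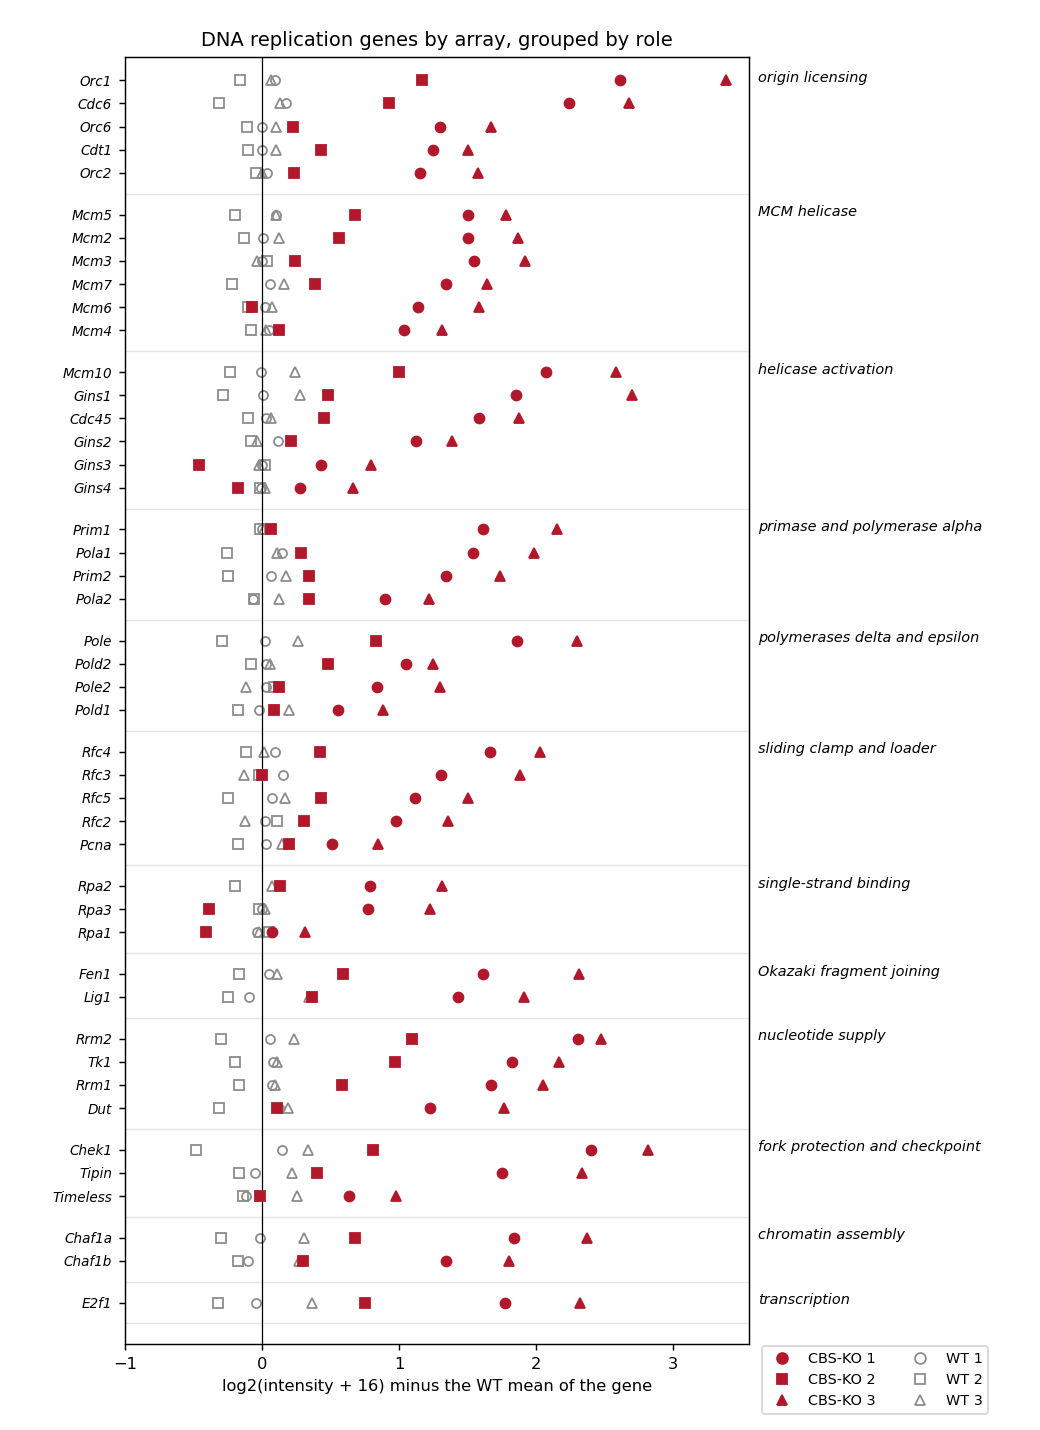
Level of each of the 45 genes on each array, as log2(intensity + 16) minus the gene's WT mean, grouped by role; red filled symbols are CBS-KO arrays and grey open symbols WT arrays, with 1 symbol shape per replicate number. CBS-KO 3 lies furthest right in every row and CBS-KO 2 furthest left of the CBS-KO arrays, above the WT arrays in 36 of 45 genes.

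Markers of dividing cells and of erythroid precursors followed these genes across the CBS-KO arrays. Neutrophil precursor, monocyte and macrophage genes were also higher on CBS-KO arrays, but in another order within the group. The neutrophil precursor list still had CBS-KO 2 and WT 2 as the lowest arrays of their groups by mean shift. By gene, CBS-KO 2 was lowest in 8 of 14 and WT 2 in 10 of 14, beside 40.7% and 35.4% of all tested probe sets. Over 19 mitosis and proliferation genes, such as Mki67, the mean shift was 1.76, 0.50 and 2.23 in CBS-KO 1, 2 and 3. This was the order seen for the replication genes, and 3 of 19 rose, beside 5.09% of all tested probe sets. All 10 measured erythroid precursor genes rose, of which Epb42 had a WT mean of 6.88, under the filter level, and passed through its CBS-KO values. The shifts of the list were 3.51, 2.50 and 3.83 in CBS-KO 1, 2 and 3. They were 0.11, -0.44 and 0.33 in WT 1, 2 and 3, so CBS-KO 2 and WT 2 were lowest here too. Their summed intensity was 19119 to 45974 in CBS-KO arrays and 2255 to 4437 in WT arrays. Of 14 neutrophil precursor genes 12 were called higher. Of the called genes, S100a8, Ly6g and Mmp8 were under the filter level on all 3 WT arrays, and S100a9 had a WT mean of 6.77, under that level. These genes passed the filter through their CBS-KO values. The neutrophil list had shifts of 3.48, 3.04 and 3.17 in CBS-KO 1, 2 and 3, against -0.083, -0.31 and 0.39 in WT 1, 2 and 3. Its summed intensities were 27563 to 39976 in CBS-KO and 1758 to 3537 in WT arrays. In the monocyte and macrophage list 9 of 10 tested genes were called higher, Cd14 among them through its CBS-KO values alone, and there CBS-KO 2 was the highest array (shift 2.31, beside 1.74 and 1.93 in CBS-KO 1 and 3), with summed intensities of 16263 to 21269 in CBS-KO and 2769 to 4801 in WT arrays.

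B cell genes ran opposite to the replication genes within the CBS-KO group, with shifts of 1.08 for CBS-KO 2, -0.13 for CBS-KO 1 and -0.65 for CBS-KO 3, and Ighm rose as 1 of 9. Their summed intensity was 9624 to 25867 in CBS-KO and 9535 to 13493 in WT arrays. Plasma cell genes had shifts of 0.78, 1.38 and 0.29 in CBS-KO 1, 2 and 3, 1 of 8 rose, and they summed to 12866 to 24972 in CBS-KO and 9366 to 12515 in WT arrays. Of 6 tested immature thymocyte genes 0 rose and Themis, also a gene of mature T cells, fell, with sums of 2558 to 4867 in CBS-KO and 4706 to 5365 in WT arrays. Rag1 and Rag2, the recombinase genes that define these cells, were under the filter level on all 6 arrays. CD4 T cell genes stood -0.81, -0.51 and -1.19 from the WT mean in CBS-KO 1, 2 and 3, lowest where the replication genes were highest, and 6 of 11 fell. Beside the counts of these B cell, plasma cell, thymocyte and CD4 T cell lists, 5.09% of all tested probe sets rose and 4.47% fell. Under the filter level were 0 of the 10 erythroid markers per CBS-KO array and 0 to 3 per WT array, and 0 of the 14 neutrophil markers per CBS-KO array and 3 to 8 per WT array. The part of these other cell types in the replication gene values was not tested. In such bulk samples fewer cells of a type and less RNA per cell cannot be told apart.

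**Figure D3:**
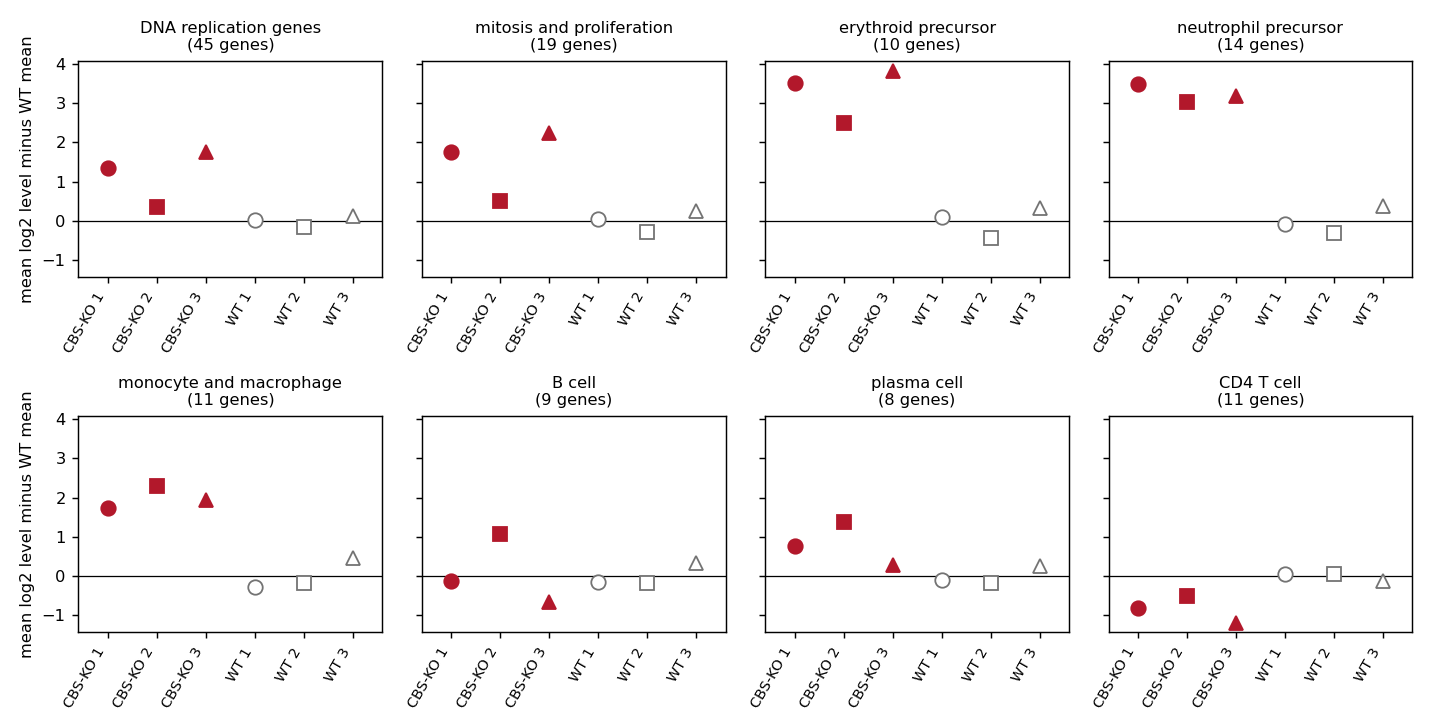
Mean log2 level of 8 gene lists on each array, relative to the list's WT mean, with CBS-KO arrays (red, filled) left and WT arrays (grey, open) right. The replication, mitosis and erythroid lists share the order CBS-KO 3, CBS-KO 1, CBS-KO 2, and the neutrophil list also has CBS-KO 2 lowest. The B cell and CD4 T cell lists have CBS-KO 2 highest and CBS-KO 3 lowest of the group.

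Promoter windows are shown for 5 members because the genes moved together and many replication genes are E2F targets. RefSeq's GRCm38.p6 table, with 250 bases before to 50 after each gene's start, held 37 of the 45. The E2F words searched on both strands were TTTGGCGC, TTTCCCGC, TTTGCCGC and TTTCGCGC, of which several can overlap in 1 stretch. At least 1 was present in 13 of the 37 genes (35.1%), against 2.6% of 27025 genes with a window. The 4 members of smallest p with a match were Mcm5 (chr8:75109259-75109558, + strand), Orc1 (chr4:108579204-108579503, +), Cdc6 (chr11:98907901-98908200, +) and Cdt1 (chr8:122567765-122568064, +). Tk1 (chr11:117825965-117826264, - strand) was the member of smallest p without one. Each is written 5′ to 3′ along its gene, with the matches in capitals.
Mcm5: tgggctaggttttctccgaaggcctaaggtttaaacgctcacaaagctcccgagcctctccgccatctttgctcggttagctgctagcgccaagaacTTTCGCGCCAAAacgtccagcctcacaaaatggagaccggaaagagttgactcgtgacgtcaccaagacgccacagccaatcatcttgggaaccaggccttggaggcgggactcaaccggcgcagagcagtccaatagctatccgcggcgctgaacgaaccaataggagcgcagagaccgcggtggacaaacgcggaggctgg
Orc1: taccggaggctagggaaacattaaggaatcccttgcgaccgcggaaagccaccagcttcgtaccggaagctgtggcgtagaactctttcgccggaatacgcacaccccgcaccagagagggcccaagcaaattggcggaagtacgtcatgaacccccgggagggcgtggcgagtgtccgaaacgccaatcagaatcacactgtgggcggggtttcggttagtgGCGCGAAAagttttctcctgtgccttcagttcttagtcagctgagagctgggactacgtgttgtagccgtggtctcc
Cdc6: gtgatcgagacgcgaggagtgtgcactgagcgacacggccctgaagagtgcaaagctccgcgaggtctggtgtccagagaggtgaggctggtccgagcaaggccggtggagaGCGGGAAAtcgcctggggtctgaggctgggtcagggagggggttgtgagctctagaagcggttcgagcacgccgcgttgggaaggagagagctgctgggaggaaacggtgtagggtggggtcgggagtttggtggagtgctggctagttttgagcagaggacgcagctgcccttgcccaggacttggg
Cdt1: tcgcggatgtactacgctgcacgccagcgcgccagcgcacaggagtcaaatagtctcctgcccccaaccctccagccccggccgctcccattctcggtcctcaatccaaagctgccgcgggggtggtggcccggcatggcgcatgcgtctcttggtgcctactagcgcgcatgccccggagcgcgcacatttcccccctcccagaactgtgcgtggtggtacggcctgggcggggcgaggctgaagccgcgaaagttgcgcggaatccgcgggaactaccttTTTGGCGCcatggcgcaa
Tk1: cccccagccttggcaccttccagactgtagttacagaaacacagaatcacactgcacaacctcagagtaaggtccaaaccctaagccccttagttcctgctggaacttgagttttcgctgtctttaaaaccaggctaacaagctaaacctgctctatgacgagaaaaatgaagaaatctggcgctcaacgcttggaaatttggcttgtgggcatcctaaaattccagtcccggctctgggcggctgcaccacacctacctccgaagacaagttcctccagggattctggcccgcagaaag
In Mcm5 the capitals hold 2 overlapping words on opposite strands, the first beginning 153 bases before the start. The match begins 27 bases before the start in Orc1, 138 before it in Cdc6 and 32 after it in Cdt1. Members with a match had a median log2 fold change of 1.12 (n = 13, range 0.26 to 2.39) and those without one 1.21 (n = 24, range -0.0069 to 2.01), so the ranges overlapped. A match of letters is not a binding site, and no match says only that these words are not in this window.

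Orc1 and Cdc6 rose among the origin licensing factors. Orc1, the ATPase subunit of the origin recognition complex (ORC) that varies through the cell cycle in mammals, read 9.12, 7.68 and 9.90 in CBS-KO 1 to 3, against 6.61, 6.35 and 6.58 in WT 1 to 3. All CBS-KO arrays lay above all WT arrays, and the log2 fold change was 2.39 (SE 0.51, limma adjusted p = 0.0384). All 3 WT values were under the filter level, and the size depended on the offset, with a log2 change of 2.59 at an offset of 1 and 1.94 at an offset of 64, so no linear fold is given. Cdc6, the ATPase that helps ORC load the helicase, read 9.67, 8.36 and 10.10 in CBS-KO 1 to 3, against 7.61, 7.12 and 7.56 in WT 1 to 3, a log2 change of 1.95 (SE 0.44, adjusted p = 0.0419) without overlap. Cdt1, the helicase chaperone that geminin holds in check, read 11.43, 10.61 and 11.68 in CBS-KO 1 to 3, against 10.18, 10.08 and 10.28 in WT 1 to 3. These groups did not overlap either, but its log2 change of 1.06 did not pass (SE 0.27, adjusted p = 0.0542). Orc2 and Orc6, core and regulatory subunits of ORC, had log2 changes of 0.99 (adjusted p = 0.0926) and 1.07 (adjusted p = 0.0958).

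In the MCM helicase, the 6-subunit ring that unwinds DNA, 2 of 6 genes rose. Mcm5 read 12.20, 11.37 and 12.47 in CBS-KO 1 to 3, against 10.79, 10.49 and 10.80 in WT 1 to 3, a log2 change of 1.32 (SE 0.28, adjusted p = 0.0370). Mcm2, the subunit that also binds histones, read 12.09, 11.15 and 12.45 in CBS-KO 1 to 3, against 10.60, 10.46 and 10.71 in WT 1 to 3 (1.31, SE 0.31, adjusted p = 0.0491). It was the called member nearest to the threshold on the inner side, and Rrm1, described below, was nearest on the outer side. The other subunits had like fold changes without passing, from 0.82 for Mcm4 to 1.23 for Mcm3, with Mcm7 at 1.12 (adjusted p = 0.0658). Mcm6 was the subunit with overlap between the groups: it read 11.54, 10.33 and 11.98 in CBS-KO 1 to 3, against 10.43, 10.30 and 10.48 in WT 1 to 3. The 95% confidence intervals of the 6 log2 fold changes all overlapped, from a lowest bound of -0.052 (Mcm6) to a highest of 2.19 (Mcm3).

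Of the factors that switch the helicase on, Mcm10 rose. Mcm10, which stimulates origin firing and binds polymerase alpha, read 10.01, 8.94 and 10.52 in CBS-KO 1 to 3, against 7.93, 7.70 and 8.18 in WT 1 to 3 (log2 fold change 1.89, SE 0.39, adjusted p = 0.0362). Cdc45, which joins MCM and GINS in the active helicase, read 10.05, 8.92 and 10.34 in CBS-KO 1 to 3, against 8.50, 8.36 and 8.53 in WT 1 to 3, and did not pass (1.30, adjusted p = 0.0629). The 4 GINS subunits, which work as 1 complex, had different fold changes. Gins1 read 9.39, 8.02 and 10.24 in CBS-KO 1 to 3, against 7.55, 7.25 and 7.82 in WT 1 to 3 (1.68, 95% confidence interval 0.43 to 2.93, adjusted p = 0.0858), and Gins2 had 0.91 (adjusted p = 0.0961). Gins4 read 10.72, 10.26 and 11.10 in CBS-KO 1 to 3, against 10.43, 10.42 and 10.46 in WT 1 to 3 (0.26, interval -0.24 to 0.75, adjusted p = 0.449), and Gins3 was like it at 0.26 (adjusted p = 0.619). In both, CBS-KO 2 lay below every WT array while the other CBS-KO arrays lay above them. None of the 4 passed, and the difference between subunits was not tested.

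The polymerase that primes each strand had 4 positive fold changes and 0 calls. Pola1, the catalytic subunit of polymerase alpha, had a log2 change of 1.27 (SE 0.42, adjusted p = 0.0972), and its partner Pola2 one of 0.82 (SE 0.22, adjusted p = 0.0611). The primase subunits Prim1 and Prim2, which lay the RNA primer, had 1.27 (adjusted p = 0.137) and 1.14 (adjusted p = 0.0801). Prim1 showed the spread of the CBS-KO arrays most plainly here: it read 10.35, 8.80 and 10.89 in CBS-KO 1 to 3, against 8.74, 8.72 and 8.76 in WT 1 to 3, so that CBS-KO 2 stood just above the WT arrays.

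Of the polymerases that extend the strands, Pole and Pold2 rose. Pole, the catalytic subunit of the leading-strand polymerase epsilon, read 10.67, 9.65 and 11.11 in CBS-KO 1 to 3, against 8.84, 8.52 and 9.08 in WT 1 to 3 (log2 fold change 1.66, SE 0.37, adjusted p = 0.0415). Its accessory subunit Pole2 had 0.76 (adjusted p = 0.130). Pold2, an accessory subunit of the lagging-strand polymerase delta, read 12.08, 11.51 and 12.28 in CBS-KO 1 to 3, against 11.06, 10.95 and 11.09 in WT 1 to 3 (0.93, SE 0.19, adjusted p = 0.0375). Pold1, the catalytic subunit of polymerase delta, read 10.28, 9.82 and 10.61 in CBS-KO 1 to 3, against 9.71, 9.55 and 9.92 in WT 1 to 3, with overlap (0.51, adjusted p = 0.169). Pold2 passed with a smaller fold change than Chek1 and Fen1, which did not pass, and had an SD of 0.40 among CBS-KO arrays and 0.072 among WT arrays.

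The sliding clamp and its loader had 5 positive fold changes and 0 calls. Pcna, the ring that tethers the polymerases, read 12.93, 12.61 and 13.26 in CBS-KO 1 to 3, against 12.45, 12.24 and 12.56 in WT 1 to 3, a log2 change of 0.52 (adjusted p = 0.0985). A further Pcna probe set had 0.55 (adjusted p = 0.0760), and because the mouse genome holds the pseudogenes Pcna-ps1 and Pcna-ps2, it is uncertain which copies either probe set reads. The loader subunits ran from 0.88 for Rfc2 to 1.37 for Rfc4, with Rfc5 at 1.02 (adjusted p = 0.0606) and Rfc4 at an adjusted p of 0.0666. Rfc3 read 9.97, 8.66 and 10.54 in CBS-KO 1 to 3, against 8.81, 8.64 and 8.53 in WT 1 to 3, and was the loader subunit with overlap (1.06, adjusted p = 0.163).

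The subunits of RPA, the complex that coats single-stranded DNA in replication and repair, all had fold changes under the median of the 45. Rpa1, its large DNA-binding subunit, read 10.90, 10.41 and 11.14 in CBS-KO 1 to 3, against 10.79, 10.88 and 10.80 in WT 1 to 3, and its log2 change of -0.0069 was the only negative one (95% confidence interval -0.45 to 0.43, adjusted p = 0.987). It was positive when the arrays were set to a common median (0.027). Rpa2 had 0.74 (adjusted p = 0.139). Rpa3 read 9.91, 8.76 and 10.37 in CBS-KO 1 to 3, against 9.15, 9.12 and 9.16 in WT 1 to 3 (0.54, adjusted p = 0.391). The dimmer of its 2 probe sets had all CBS-KO arrays above the WT arrays, with values of 8.70, 8.23 and 9.12 in CBS-KO 1 to 3 against 8.07, 8.04 and 8.14 in WT 1 to 3 (0.60, adjusted p = 0.129), so the 2 differed in where CBS-KO 2 fell.

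Fen1 and Lig1, the flap nuclease and the ligase that finish Okazaki fragments, were higher on all CBS-KO arrays without passing. Fen1 read 10.20, 9.19 and 10.90 in CBS-KO 1 to 3, against 8.65, 8.43 and 8.71 in WT 1 to 3 (log2 fold change 1.50, SE 0.40, adjusted p = 0.0612). Lig1 had 1.24 (SE 0.39, adjusted p = 0.0883), and its lowest CBS-KO array, at 9.54, stood just over its highest WT array, at 9.52.

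Among the enzymes of nucleotide supply Rrm2 and Tk1 rose, and these had the smallest adjusted p of the 45. Tk1, the S phase thymidine kinase, read 10.69, 9.84 and 11.04 in CBS-KO 1 to 3, against 8.95, 8.67 and 8.98 in WT 1 to 3 (log2 fold change 1.65, SE 0.30, adjusted p = 0.0269). Its dimmer probe set read 10.66, 9.60 and 10.95 in CBS-KO 1 to 3, against 8.36, 8.09 and 8.68 in WT 1 to 3, and rose too (2.03, SE 0.36, adjusted p = 0.0251). Rrm2, the small subunit of ribonucleotide reductase made in S phase, read 12.29, 11.07 and 12.45 in CBS-KO 1 to 3, against 10.04, 9.68 and 10.22 in WT 1 to 3 (1.96, SE 0.37, adjusted p = 0.0284). Rrm1, the large subunit of that enzyme, read 12.47, 11.39 and 12.85 in CBS-KO 1 to 3, against 10.88, 10.64 and 10.90 in WT 1 to 3, and just missed the threshold (1.43, SE 0.35, adjusted p = 0.0510). Dut, which hydrolyses dUTP so that uracil stays out of DNA, had 1.04 (adjusted p = 0.142) and overlapping groups.

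The genes of fork protection and checkpoint control had positive fold changes and 0 calls. Chek1, the checkpoint kinase activated at stalled forks, read 10.50, 8.91 and 10.91 in CBS-KO 1 to 3, against 8.25, 7.62 and 8.44 in WT 1 to 3 (log2 fold change 2.01, SE 0.52, adjusted p = 0.0568). The groups did not overlap, and its spread was wide in both, with an SD of 1.06 in CBS-KO and 0.43 in WT arrays. Tipin and Timeless, which form 1 complex that travels with the fork, differed in size, with log2 changes of 1.50 (interval 0.39 to 2.60, adjusted p = 0.0834) and 0.53 (interval -0.10 to 1.17, adjusted p = 0.227). Those intervals overlap. Timeless read 8.91, 8.26 and 9.25 in CBS-KO 1 to 3, against 8.16, 8.13 and 8.53 in WT 1 to 3, and CBS-KO 2 fell inside the WT range.

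Chaf1a and Chaf1b, the subunits of the chaperone CAF-1 that places histones behind the fork, had log2 changes of 1.63 (SE 0.42, adjusted p = 0.0570) and 1.15 (SE 0.37, adjusted p = 0.0925). Chaf1a read 9.60, 8.44 and 10.13 in CBS-KO 1 to 3, against 7.75, 7.46 and 8.07 in WT 1 to 3, with no overlap. E2f1, the transcription factor that activates many of these genes, read 10.17, 9.14 and 10.71 in CBS-KO 1 to 3, against 8.35, 8.07 and 8.76 in WT 1 to 3. Its log2 change of 1.61 (SE 0.40) fell just short of the threshold (adjusted p = 0.0522). In all, 23 of the 45 genes had an adjusted p between 0.05 and 0.10, and 13 one of 0.10 or more. Of the 20856 tested probe sets, 2466 had one between 0.05 and 0.10.

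**Figure D4:**
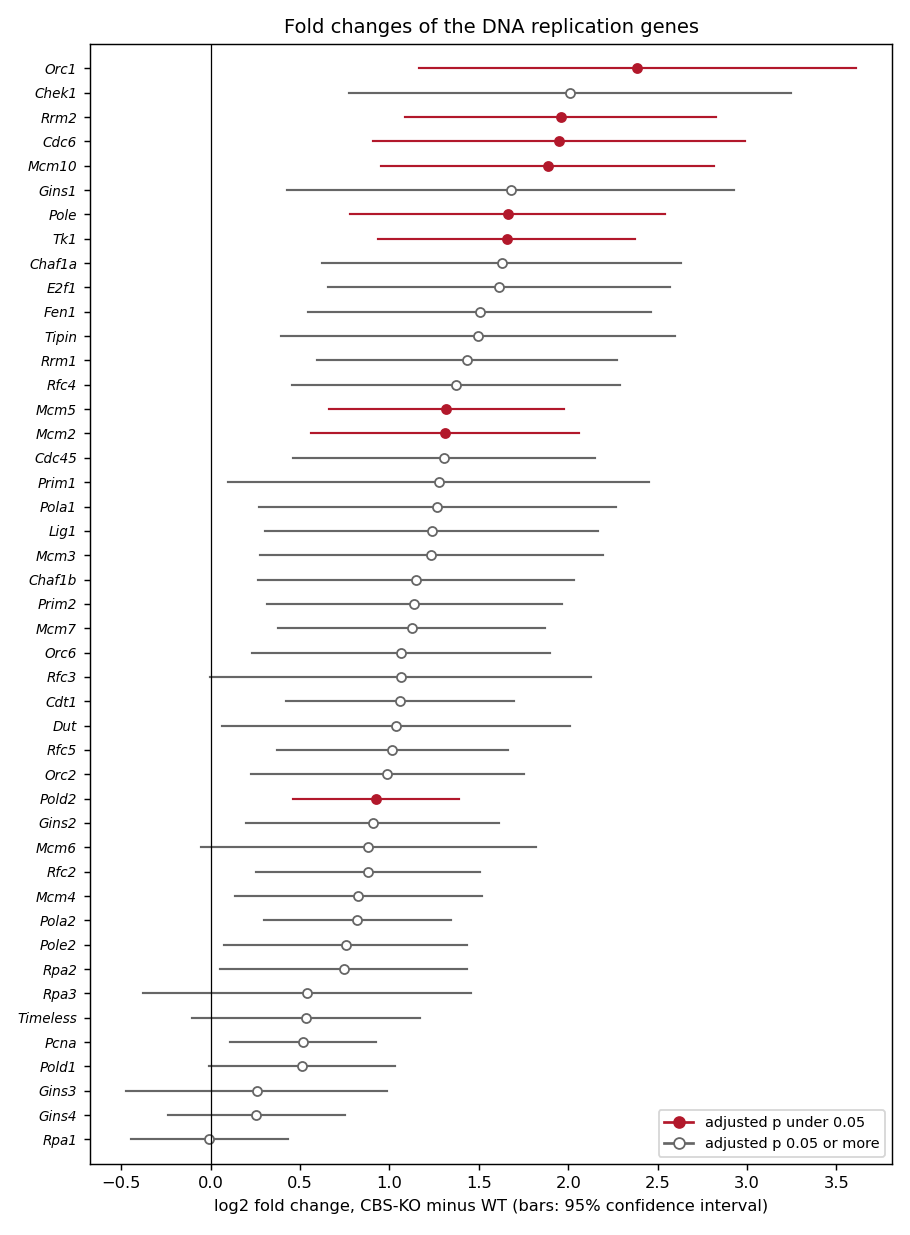
Log2 fold change of each of the 45 genes, CBS-KO minus WT, in order of size, with its 95% confidence interval from limma; red filled points passed an adjusted p of 0.05. Orc1 is highest at 2.39, Rpa1 lowest at -0.0069, and the 9 called genes are spread between 0.93 and 2.39.

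Other genes of DNA replication formed a separate list of 38. Of 37 measured, 2 rose (Dna2 and Tyms) and 1 fell (Rrm2b), with a median log2 fold change of 0.35 and 27 positive values, beside 1.14 and 44 of 45 for the genes above. The shares called, 5.41% higher and 2.7% lower, were near those of all tested probe sets, 5.09% and 4.47%. Dna2, a nuclease-helicase of Okazaki fragments, read 10.84, 9.83 and 11.11 in CBS-KO 1 to 3, against 8.13, 7.79 and 8.48 in WT 1 to 3 (2.46, SE 0.35, adjusted p = 0.0156), a larger fold change than any of the 45. Tyms, which makes the thymidylate of DNA, had 1.59 (SE 0.34, adjusted p = 0.0380). Rrm2b, the small subunit of ribonucleotide reductase that p53 induces and resting cells use, read 8.47, 8.38 and 8.52 in CBS-KO 1 to 3, against 9.24, 9.06 and 8.97 in WT 1 to 3 (-0.63, SE 0.13, adjusted p = 0.0346). Every CBS-KO value was under every WT value, while its S phase counterpart Rrm2 rose. These 3 calls were lost without CBS-KO 1, WT 1 or WT 2, when 0 of the 37 passed in limma. In each of those fits 12 had an unadjusted p under 0.05, counted in both directions. In the main fit 13 of the 37 did, beside 6443 of all 20856 tested probe sets. Without CBS-KO 2, 22 rose (59.5%, beside 16.3% of all tested probe sets) and 2 fell. Without CBS-KO 3, 1 rose (2.78%, beside 3.83%) and 1 fell of 36 tested. Without WT 3, 1 rose (2.7%, beside 2.05%) and 0 fell.

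For some complexes the separate list held further subunits. In ORC, Orc3, Orc4 and Orc5 had log2 changes of 0.038 (interval -0.34 to 0.42), -0.29 (interval -0.73 to 0.16) and 0.30 (interval -0.16 to 0.77). The intervals of Orc3 and Orc5 overlapped those of Orc2 (0.23 to 1.75) and Orc6 (0.23 to 1.90). Rfc1, the large subunit of the clamp loader, had 0.36 (adjusted p = 0.303), with an interval of -0.15 to 0.87 that overlapped those of Rfc2 (0.25 to 1.51), Rfc3, Rfc4 and Rfc5. In polymerase epsilon, Pole3 had 1.21 (adjusted p = 0.0657) and Pole4 -0.093 (interval -0.34 to 0.15), the upper bound of Pole4 lying below the lower bound of Pole (0.78) but above that of Pole2 (0.077). In polymerase delta, Pold3 had 0.73 (adjusted p = 0.0873) and Pold4 -0.41 (interval -0.85 to 0.024), with the upper bound of Pold4 below the lower bound of Pold2 (0.46) but above that of Pold1 (-0.011). Differences between subunits were not tested, and these comparisons were chosen after the values were known.

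**Figure D5:**
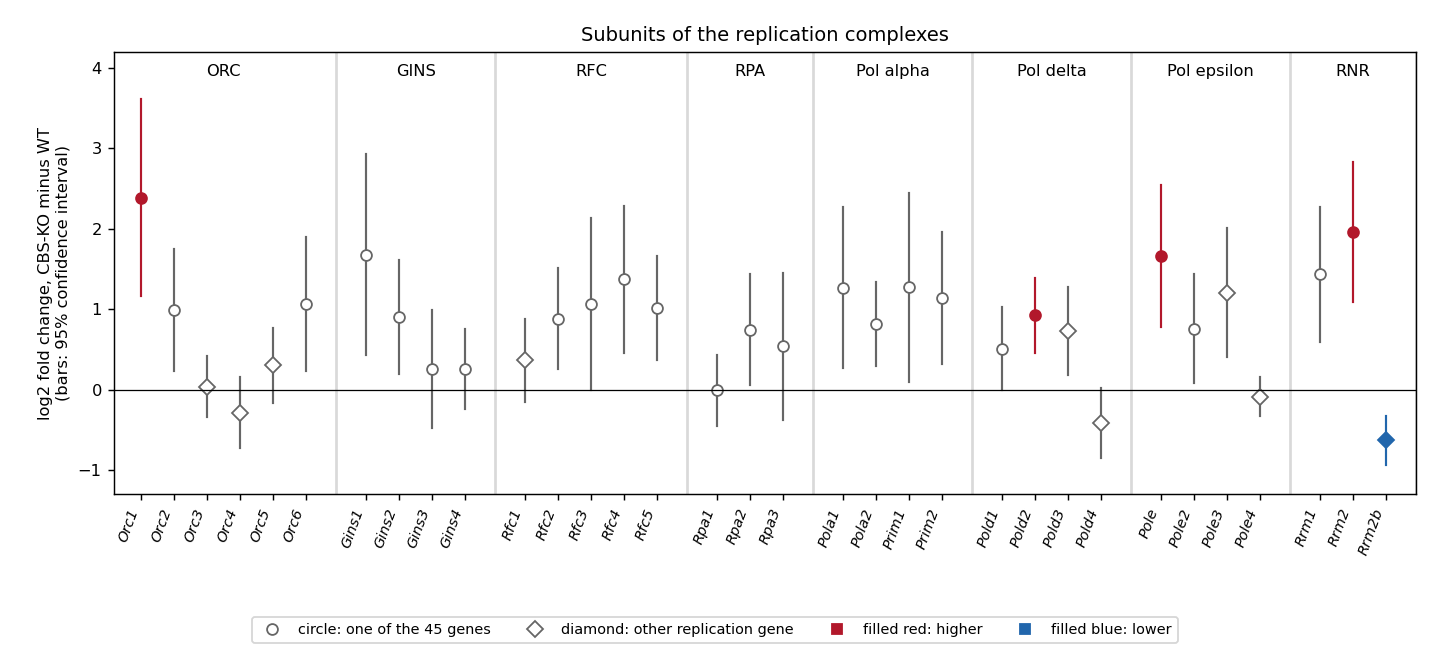
Log2 fold change of the measured subunits of 8 replication complexes, CBS-KO minus WT, with 95% confidence intervals from limma; circles are genes of the 45, diamonds other replication genes, red filled symbols higher and blue filled symbols lower at an adjusted p under 0.05. Orc1, Pold2, Pole and Rrm2 are called higher and Rrm2b lower. Orc3, Orc4, Pole4, Pold4 and, of the 45, Rpa1 lie near or below 0.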

How the data were processed

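RNA of CD4+ T cells was measured on 6 Affymetrix arrays, 3 of CBS-KO and 3 of WT mice. The authors deposited 1 linear intensity per probe set and array; which background correction, normalization and summary they used is not stated. Values were taken as log2(intensity + 16). Probe sets were named through GEO's platform annotation, and each gene was read from its brightest probe set that named it alone. Probe sets with a mean over the 6 arrays above the 40th percentile were tested (20856 of 34760). The test was limma's moderated one (limma 3.58.1 and R 4.3.3; eBayes, trend on), and p-values were adjusted over those 20856 by Benjamini-Hochberg; calls were made under 0.05. The fit was tested on simulated data. Arrays are labelled biological replicates, and their number limits the precision. The labels give replicate numbers but state no pairing, and the main fit did not pair the arrays. Same-numbered CBS-KO and WT arrays had correlations of their deviations from the group means of 0.063, 0.158 and 0.108. Arrays of unlike number had -0.122 to 0.048. Alternatives changed the scaling, filter, offset, variance model, probe set choice, sex term and arrays used. All 45 genes could be named. Array values are given for called genes, those nearest the threshold and others that show a spread, and of other lists up to 4 genes of smallest p. Values by array of uncalled genes, the subunits compared across both replication lists, and Cdk1 were chosen after their values were seen. The genes and lists were chosen with earlier results of these data known. Promoter windows were searched with Python 3.11.15.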

Additional observations from a re-analysis of the deposited data

How the results depend on the processing

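With 3 arrays a group, the direction of the 45 genes was steadier than their calls. Against 9 genes called higher, 7 to 13 were called with quantile normalization, a common array median, a filter at the 60th percentile (44 tested), offsets of 1 or 64, eBayes without a trend, robust eBayes or all probe sets of a gene averaged. In those fits 4.56% to 6.6% of all tested probe sets rose, against 5.09% in the main fit. The 13 came with quantile normalization (5.77%) and with the 60th percentile filter (6.6%). Of the 45 genes, 0 were called lower in any of the 18 alternatives. With no filter, 1 of the 45, 1 other replication gene and 1126 probe sets of all kinds were called, against 9, 2 and 1995. Quantile normalization called 4 other replication genes higher. With sex as a term, 40 of the 45, 15 other replication genes higher and 0 lower, and 4976 probe sets were called. On female arrays alone these were 44, 22, 0 and 6658, and the median log2 fold change was 1.78 in both, against 1.14. Leaving out 1 array gave 0 to 44 of the 45, a median of 0.84 to 1.57, 0 to 22 other replication genes higher, 0 to 2 lower and 72 to 6433 probe sets, the fewest probe sets without WT 2 and the most without CBS-KO 2. Each fit without an array held fewer samples, and the cause of these shifts was not tested. With a replicate block, 22 of the 45 (5.61% of all tested probe sets), 7 other replication genes higher and 0 lower were called. Every array correlated best with its own number in the other group, but for CBS-KO 1 the values were 0.063 with WT 1 and 0.048 with WT 3. Deviations from the mean of 3 arrays are not independent, so these correlations cannot decide whether the arrays were paired. The log2 fold change of Rpa1 was -0.0069, and turned positive with a common array median (0.027), the sex term or female arrays alone (0.31 in both), without CBS-KO 2 (0.19) and without WT 2 (0.019), with a range of -0.17 to 0.19 over arrays left out. That of Gins3, 0.26, ranged from -0.013 without CBS-KO 3 to 0.61 without CBS-KO 2. Over single genes and alternatives, 626 values kept direction and call, 54 lost the call, 123 gained it and 6 changed sign.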

Other observations

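A list of regulators of the step from G1 into S phase held 27 genes, of which 26 were measured. Of these, 10 rose, 1 fell and 15 did not pass (38.5% higher and 3.85% lower, beside 5.09% and 4.47% of all tested probe sets), and the median log2 fold change was 0.78. Without CBS-KO 1, WT 1 or WT 2, 0 of the 26 passed in limma. In those fits 13, 14 and 15 had an unadjusted p under 0.05, counted in both directions. In the main fit 18 of the 26 did, beside 6443 of all 20856 tested probe sets. Without CBS-KO 2, 19 rose (73.1%, beside 16.3% of all tested probe sets) and 3 fell. Without CBS-KO 3, 4 rose (15.4%, beside 3.83%). Without WT 3, 1 rose (3.85%, beside 2.05%). Ccna2, the cyclin of S phase, read 12.50, 11.34 and 12.71 in CBS-KO 1 to 3, against 10.26, 9.91 and 10.41 in WT 1 to 3 (1.99, SE 0.36, limma adjusted p = 0.0259). E2f8, a repressive member of the E2F family, had 2.37 (SE 0.43, limma adjusted p = 0.0263). E2f4, an E2F factor that represses with pocket proteins in resting cells, and Tfdp1, a dimer partner of E2F factors, had 0.86 (SE 0.17, limma adjusted p = 0.0310) and 1.13 (SE 0.23, limma adjusted p = 0.0362). The gene that fell was Cdkn1b, which encodes the cyclin-dependent kinase inhibitor p27, and it was named after its value was seen. It read 11.43, 11.64 and 11.14 in CBS-KO 1 to 3, against 12.01, 11.98 and 11.92 in WT 1 to 3 (-0.56, SE 0.13, limma adjusted p = 0.0484).

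All 19 measured genes of the mitosis and proliferation list had positive log2 fold changes, with a median of 1.55, and 3 rose (15.8%). Without CBS-KO 2 all 19 rose (16.3% of all tested probe sets), and without CBS-KO 3, 1 rose (5.26%, beside 3.83%). Without any other array 0 passed in limma, where 13 to 17 had an unadjusted p under 0.05, counted in both directions. In the main fit all 19 did, beside 6443 of all 20856 tested probe sets. Mki67, the proliferation antigen, read 12.44, 11.59 and 12.56 in CBS-KO 1 to 3, against 10.55, 10.15 and 10.82 in WT 1 to 3 (1.69, SE 0.29, limma adjusted p = 0.0241). The mitotic kinases Plk1 and Aurkb had 1.63 (SE 0.37, limma adjusted p = 0.0420) and 1.67 (SE 0.39, limma adjusted p = 0.0449). Cdk1, the kinase that starts mitosis, had 1.76 and did not pass (SE 0.44, limma adjusted p = 0.0537).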
